A study of Mus musculus with 9 samples.

Results

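Granulosa cells line the ovarian follicle, feed the oocyte and make estradiol. Their identity rests on a small set of transcription factors. Followed here were 10 genes: Foxl2, Nr5a1, Nr5a2, Gata4, Gata6, Wt1, Nr0b1, Foxo1, Sox4 and Sox9, the last of which encodes a testis factor. The genes were taken by symbol, and all 10 were found among the 54838 genes of the table. FOXL2 is a forkhead protein that keeps granulosa cells in their fate; adult mouse ovaries that lose it turn on the testis factor SOX9. NR5A1 and NR5A2 are nuclear receptors that switch on steroid synthesis, and NR0B1 is an atypical nuclear receptor that represses NR5A1. GATA4, GATA6 and WT1 are zinc finger proteins of the gonadal somatic lineage, and FOXO1 is a forkhead protein held in check by the growth signals that follow gonadotropin.

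Whole ovaries of adult mice were taken 40 h after a dose of PMSG, which stimulates follicles as FSH does, and RNA was sequenced in 3 libraries for each of 3 genotypes. The DKO LXR TG-AMH-LXRb ovaries (DKO_TG below) lack both liver X receptors and carry a transgene named for AMH and LXRb. The DKO LXR ovaries (DKO) lack both receptors and carry no named transgene, and the WT ovaries are wild type. Liver X receptors bind oxysterols and govern cholesterol efflux. All groups had received PMSG, so no unstimulated ovary stands beside them. The transgene's promoter, its target cells and the number of animals behind a library were not given in the sources used here. Whether libraries came from separate animals is therefore unknown, and p-values reflect only the spread among these samples, which may be technical.

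Values are RPKM, reads per kilobase of transcript scaled by library size. Multiplied by exon length they gave back whole reads, in totals of 40.1 to 59.4 M per library. The library size behind the values was 0.793 to 0.920 times that total in WT and 1.03 to 1.11 times in the other 6 libraries, so levels in WT carry a different scaling. Nuclear-retained RNAs also separated WT: Malat1 and Neat1 together gave 295 to 337 RPKM in DKO_TG libraries, 218 to 279 in DKO libraries and 1.89 to 11.9 in WT libraries. Differences from WT move with these features, and their part in the results was not tested. The receptor gene Nr1h2, which encodes LXRb, averaged 5.67 RPKM in DKO_TG, 6.53 in DKO and 18.8 in WT. Its libraries ran from 5.14 to 5.96 in DKO_TG and from 5.79 to 7.79 in DKO. These values therefore show no excess of Nr1h2 RNA to go with the transgene label, which has no other check here. A set of 10 other granulosa markers was present in every library. Their sum was 1796 to 2218 RPKM in DKO_TG, 1220 to 2593 in DKO and 1884 to 2654 in WT, which overlap. Inha carried most of it in every library, at 1281 to 1569 RPKM in DKO_TG, 874 to 1640 in DKO and 1503 to 1980 in WT. The overlap is therefore mainly that of Inha and is no measure of granulosa content. In whole ovary, fewer cells of a type and less RNA per cell cannot be told apart.

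Tests were made with limma on log2(RPKM + 0.5) over the 18889 genes with at least 0.5 RPKM in at least 3 libraries. A gene was called at a Benjamini-Hochberg adjusted p under 0.05, and 9 of the 10 factors were tested. Sox9 did not reach the filter in any library. In DKO against WT, 2 factors were called higher (Wt1 and Nr0b1) and 2 lower (Foxl2 and Sox4). The background was wide: 56.7% of the genes tested passed, 30.8% upward and 25.9% downward, so 4 of 9 is no more than that share. With DKO_TG against WT, 1 factor, Foxl2, was called lower and 0 higher, where the shares over all genes were 22.3% and 29.1% (51.4% in either direction). In DKO_TG against DKO, limma called 0 of 9 factors, with 3 at an unadjusted p under 0.05 and 0 called by limma-voom on the recovered reads. Over all genes, 2.23% were called in that comparison, 0.498% higher and 1.73% lower. In the same comparison 2987 of the 18889 genes had an unadjusted p under 0.05 in limma. Against WT such genes numbered 10896 in DKO_TG and 11813 in DKO. Libraries of the groups compared did not overlap for 3 factors in DKO against WT (Wt1 above, Foxl2 and Sox4 below), where 61.2% of all tested genes separated that way, 32.6% above and 28.6% below. They did not overlap for 2 factors in DKO_TG against WT (Foxl2 and Sox4 below; 65.8% of all genes, 35.6% above and 30.2% below) and for 1, Wt1, in DKO_TG against DKO (24.2% of all genes). The median log2 difference of the 9 factors was -0.08 in DKO against WT, -0.03 in DKO_TG against WT and -0.02 in DKO_TG against DKO, beside 0.02, 0.03 and 0.03 over all tested genes.

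**Figure D1:**
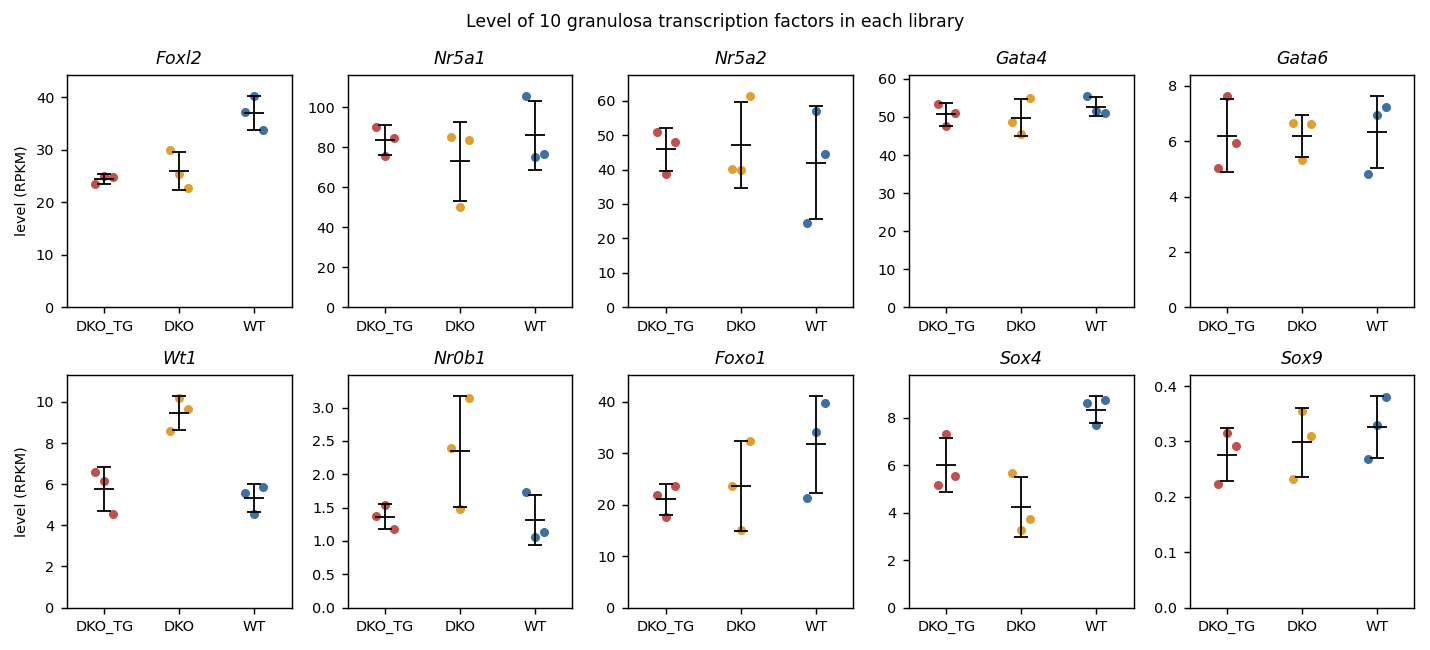
Level of each factor in RPKM (vertical axes from 0, a scale for each gene) in the DKO_TG, DKO and WT libraries; points are libraries, and the bar and whiskers are the mean and SD (n = 3). Wt1 lies at 8.57 to 10.2 RPKM in DKO, above every other library, and Foxl2 lies at 33.8 to 40.3 RPKM in WT, above every other library.

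Levels per length of transcript spanned from Nr5a1 at the top to Sox9 at the bottom. Nr5a1 was the highest factor in 9 of 9 libraries, at 50.3 to 106 RPKM. Gata4 and Nr5a2 came next and changed places, with Gata4 above Nr5a2 in 7 of 9 libraries. Foxl2 exceeded Foxo1 in 7 of 9 libraries. Wt1, Gata6 and Sox4 could not be ordered: Gata6 was above Sox4 in 5 of 9 libraries and Wt1 above Gata6 in 5 of 9. Nr0b1 ranked 9 in every library, at 1.06 to 3.15 RPKM, and Sox9 ranked 10, at 0.223 to 0.380 RPKM. Gata4 varied least, by 1.22 times between its lowest and highest library, and Nr0b1 most, by 2.96 times.

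Foxl2, on chromosome 9 at 98955288 to 98958543 (mm10, plus strand, a single exon), was lower in both groups without the receptors. It was at 23.4, 25.0 and 24.9 RPKM in the DKO_TG libraries, at 29.97, 25.3 and 22.7 in the DKO libraries, and at 37.1, 40.3 and 33.8 in the WT libraries. The WT values overlapped with neither of the other groups, while DKO_TG and DKO values overlapped each other. The log2 difference was -0.51 ± 0.11 in DKO against WT (SE, adjusted p = 0.00538 in limma) and -0.59 ± 0.11 in DKO_TG against WT (SE, adjusted p = 0.00288 in limma). Between DKO_TG and DKO it was -0.08, with a 95% interval from -0.34 to 0.18. The calls against WT held in all 9 fits that left out a library and with TMM, but under none of the other 4 scalings: with quantile normalization the differences were -0.14 for DKO and -0.28 for DKO_TG, and with the plain total of reads -0.20 and -0.33, none of them called. Rescaling each library to the same sum of values gave 0.04 for DKO, a change of sign.

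Scaling bears on every difference from WT. With the same sum of values the median of all tested genes moved by 0.47 in DKO against WT and by 0.44 in DKO_TG against WT, and with the plain total by 0.27 and 0.22. Of the genes called, 90.4% and 90.7% were then higher with the same sum of values, and 78.1% and 77% with the plain total, where 54.4% and 56.6% were higher as deposited. TMM and quantile normalization moved the medians by -0.10 and -0.07 in DKO against WT, with 44.4% and 46.8% of calls higher, and by -0.11 and -0.10 in DKO_TG against WT, with 44.8% and 45.6% higher.

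The gene on the opposite strand of Foxl2 differed far more. Foxl2os is a long non-coding transcript that shares 12 exon bases with Foxl2; it was examined because of that overlap, after values were seen. Foxl2os was at 43.0, 33.5 and 43.9 RPKM in the DKO_TG libraries, 40.9, 27.6 and 45.2 in the DKO libraries, and 3.10, 3.89 and 3.18 in the WT libraries. Every WT library was below every other library, and the mean level was 11.8 times that of WT in DKO_TG and 11.2 times in DKO. In limma the log2 differences were 3.38 ± 0.19 for DKO_TG and 3.28 ± 0.19 for DKO (SE, adjusted p = 3.13e-06 and 3.27e-06), and both calls held in all 21 alternative settings.

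The balance of both strands does not depend on how libraries are scaled. Foxl2os was at 1.34 to 1.84 times the level of Foxl2 in DKO_TG, 1.09 to 1.99 times in DKO and 0.0836 to 0.0966 times in WT. The use of strand in counting is not given in the sources used here, so reads of the shared bases are uncertain, but these are few. Long non-coding genes as a class were higher: of 1310 tested, 893 (68.2%) were called higher in DKO and 873 (66.6%) in DKO_TG than in WT. Over all tested genes, the shares called higher were 30.8% and 29.1%. Within that class, 1.6% had a difference as large as that of Foxl2os in either comparison.

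**Figure D2:**
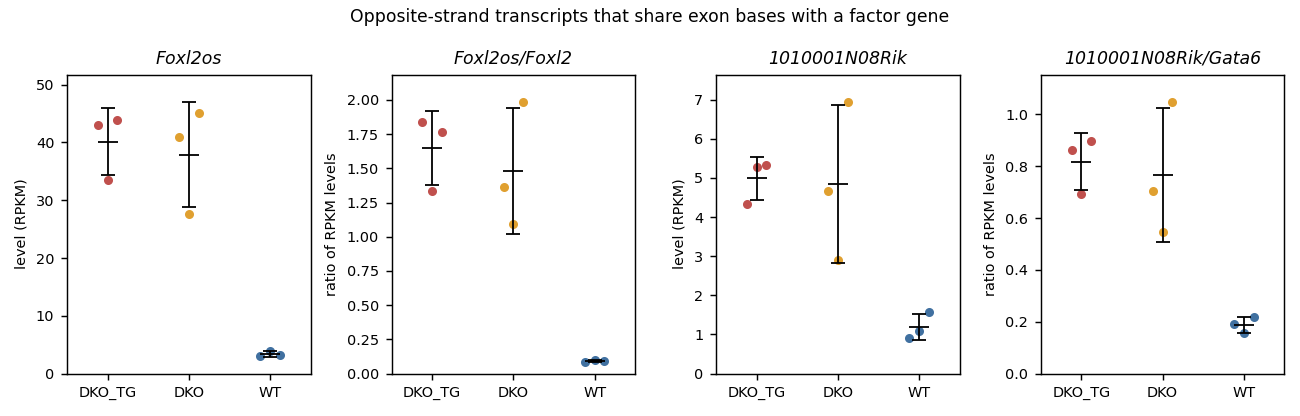
Levels in RPKM of Foxl2os and 1010001N08Rik, transcripts opposite to Foxl2 and Gata6, and their ratio to that gene within a library (vertical axes from 0); points are libraries, with mean and SD (n = 3). WT libraries sit below all others in each panel, with Foxl2os at 3.10 to 3.89 RPKM.

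Levels of the NR5A receptor genes overlapped between all genotypes. Nr5a1, also called SF-1, lies on chromosome 2 at 38692656 to 38714542 (minus strand). It was at 90.3, 75.8 and 84.9 RPKM in DKO_TG, 85.0, 50.3 and 83.8 in DKO, and 106, 75.3 and 76.8 in WT. DKO replicate 2 was the lowest library and WT replicate 1 the highest, and all groups overlapped. The log2 difference was -0.26 in DKO against WT, with a 95% interval from -0.75 to 0.24, and -0.02 in DKO_TG against WT, with an interval from -0.52 to 0.47. With the plain total of reads these were 0.06 and 0.24, so the sign rests on the scaling.

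Nr5a2, also called LRH-1 and needed for ovulation in mice, lies on chromosome 1 at 136842571 to 136960448 (minus strand). Its levels were 50.9, 38.8 and 47.9 RPKM in DKO_TG, 40.1, 39.8 and 61.4 in DKO, and 24.5, 56.9 and 44.5 in WT. The spread within WT was as wide as that over all 9 libraries apart from DKO replicate 3. The log2 difference was 0.22 in DKO against WT (95% interval -0.46 to 0.89) and 0.20 in DKO_TG against WT (-0.47 to 0.87). Without WT replicate 1 these turned to -0.12 and -0.14. Each library held at least 6609 reads of Nr5a2.

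Nr0b1, also called DAX-1 and X-linked at 86191764 to 86195947 (plus strand), was higher in DKO. It was at 1.37, 1.55 and 1.18 RPKM in DKO_TG, 2.40, 1.49 and 3.15 in DKO, and 1.74, 1.06 and 1.13 in WT. DKO replicate 2 lay within the range of the WT libraries, so the groups overlapped. The log2 difference in DKO against WT was 0.63 ± 0.23 (SE, adjusted p = 0.0408 in limma). Leaving out 1 library ended that call in 7 of 9 fits, all but those without WT replicate 1 or DKO replicate 2, and the highest adjusted p in limma was then 0.127. It was also lost without a filter (adjusted p = 0.0838), with TMM (0.0638), with quantile normalization (0.382), in a fit of the 6 libraries (0.0764) and in limma-voom. In DKO_TG against DKO the log2 difference was -0.57 (95% interval -1.08 to -0.06, adjusted p = 0.263 in limma). In DKO_TG against WT it was 0.06 (-0.46 to 0.57). The counts behind Nr0b1 were small, 86 to 372 reads per library.

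Promoter sequence was looked up in RefSeq (GRCm38.p6, the build of mm10) and was matched for 5 of the 10 factors, Foxl2, Foxo1, Nr0b1, Nr5a2 and Sox4. The 250 bases before the start are shown for Sox4 and Nr0b1, which were called in opposite directions in DKO. Capitals mark the nuclear receptor half-site AGGTCA, searched on both strands, which each window holds once, 162 and 126 bases before the start. Sox4 is at chr13:28953700-28953949 (minus strand) and Nr0b1 at chrX:86191525-86191774 (plus strand).
Sox4: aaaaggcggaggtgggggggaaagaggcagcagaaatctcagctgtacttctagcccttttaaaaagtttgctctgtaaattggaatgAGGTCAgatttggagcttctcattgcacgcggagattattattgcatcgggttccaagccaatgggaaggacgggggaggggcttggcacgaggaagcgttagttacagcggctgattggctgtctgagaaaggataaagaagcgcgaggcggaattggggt
Nr0b1: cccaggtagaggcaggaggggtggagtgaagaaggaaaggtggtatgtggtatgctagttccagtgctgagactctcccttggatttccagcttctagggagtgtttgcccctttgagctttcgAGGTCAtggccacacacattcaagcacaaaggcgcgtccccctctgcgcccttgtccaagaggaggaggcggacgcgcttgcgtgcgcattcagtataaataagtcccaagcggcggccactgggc
Of 32851 promoters of that length, 14.0% hold the half-site. The NR5A form AAGGTCA, found in 4.08% of promoters, and the LXR form DR4, a direct repeat of the half-site found in 0.0152%, were not matched in either window; both contain the half-site. Nor was the forkhead core GTAAACA (3.17%), the SOX words AACAAT and AACAAAG (13.8%) or the word GATA with A or T before it and A or G after it (26.5%). A match describes these letters and says nothing of binding.

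Wt1, on chromosome 2 at 105126529 to 105173616 (plus strand), encodes a zinc finger protein of granulosa cells in early follicles that the ovarian surface epithelium also expresses. It was at 6.60, 6.14 and 4.56 RPKM in DKO_TG, 8.57, 10.2 and 9.65 in DKO, and 5.60, 4.57 and 5.85 in WT. Every DKO library exceeded every library of the other groups, and DKO_TG and WT overlapped. The log2 difference in DKO against WT was 0.77 ± 0.15 (SE, adjusted p = 0.00221 in limma), and it was called under all 21 alternatives, at 0.66 to 1.28. Against WT, DKO_TG differed by 0.09, with a 95% interval from -0.24 to 0.42; it was called with the same sum of values (0.58) and with that sum over protein-coding genes (0.40).

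In DKO_TG against DKO the log2 difference of Wt1 was -0.68 ± 0.15 (SE, adjusted p = 0.0516 in limma), just outside the threshold. It was called with a pseudocount of 1 (adjusted p = 0.0493 in limma) and under 4 of 5 other scalings (0.0309 to 0.0475), and was not called in any fit that left out a library (0.0600 to 0.162). Over all tested genes, 12.1% were lower in DKO_TG than in DKO with no overlap of the libraries, and 12.1% higher. The sum of 8 surface epithelium markers was 12.6 to 22.9 RPKM in DKO_TG, 27.7 to 44.3 in DKO and 30.3 to 64.2 in WT. In DKO against WT limma called 0 of 8 (56.7% of all genes). An unadjusted p under 0.05 in limma was reached by 0, beside 11813 of all 18889 genes, and limma-voom called 0. Of these 8, 5 fell in DKO_TG against WT (22.3% of all genes). Krt19, Upk3b and Lgals7 were called under all 5 other scalings, Upk1b under 4 and Krt8 under 2. In DKO_TG against DKO limma called 0 of the 8 (2.23% of all genes). An unadjusted p under 0.05 in limma was reached by 3, beside 2987 of all 18889 genes, and limma-voom called 0. Of 7 macrophage markers, 6 rose in DKO against WT (30.8% of all genes) and 5 fell in DKO_TG against DKO (1.73% of all genes). Their sums were 73.5 to 77.9 RPKM in DKO_TG, 150 to 300 in DKO and 102 to 134 in WT. Itgam is in both counts but passed the filter only through DKO (0.856 to 2.45 RPKM), which favoured its calls. Itgam and Csf1r share exon bases with other genes and are uncertain. In DKO against WT, Csf1r was called in 2 of 9 fits that left out a library and C1qa in 3. Adgre1, C1qb, Itgam and Cd14 were called in all 9. None of the markers of either list was at 0 in all libraries, and their part in the levels of Wt1 and Nr0b1 was not tested.

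The GATA genes had the smallest relative spread over the 9 libraries as deposited. Gata4, on chromosome 14 at 63198922 to 63271692 (minus strand), was at 53.5, 47.5 and 51.0 RPKM in DKO_TG, 48.8, 45.5 and 55.1 in DKO, and 55.6, 51.5 and 51.0 in WT. The groups overlapped, and the log2 difference was -0.08 in DKO against WT (95% interval -0.31 to 0.14) and -0.06 in DKO_TG against WT (-0.28 to 0.17). That statement holds for the deposited scaling: with quantile normalization or the same sum of values Gata4 was called higher in DKO, at 0.38 and 0.46 (adjusted p = 0.0398 and 0.0145 in limma), and with the same sum of values it was called higher in DKO_TG, at 0.47 (adjusted p = 0.0143 in limma).

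Gata6, on chromosome 18 at 11052064 to 11085635 (plus strand), was at 5.03, 7.63 and 5.94 RPKM in DKO_TG, 6.65, 5.31 and 6.62 in DKO, and 4.83, 6.96 and 7.22 in WT. The ranges of all groups overlapped. The log2 difference was -0.02 in DKO against WT (95% interval -0.43 to 0.40) and -0.03 in DKO_TG against WT (-0.44 to 0.39). The opposite-strand transcript 1010001N08Rik, which shares 93 exon bases with Gata6, was at 4.34, 5.28 and 5.33 RPKM in DKO_TG, 4.67, 2.90 and 6.95 in DKO, and 0.921, 1.083 and 1.58 in WT. Its log2 differences from WT were 1.71 in DKO_TG and 1.60 in DKO (adjusted p = 0.000851 and 0.00110 in limma). Among long non-coding genes, 14.3% and 17.5% differed from WT by as much.

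Foxo1, on chromosome 3 at 52268336 to 52353221 (plus strand), was at 21.8, 17.7 and 23.6 RPKM in DKO_TG, 23.6, 15.0 and 32.4 in DKO, and 21.3, 34.1 and 39.7 in WT. WT replicate 1 lay among the libraries of the other groups, at the level of the DKO_TG ones. The log2 difference was -0.44 in DKO against WT (95% interval -1.11 to 0.24) and -0.54 in DKO_TG against WT (-1.22 to 0.13), and neither was called (adjusted p = 0.234 and 0.155 in limma). Foxo1 shares 674 exon bases with Gm20402 on the opposite strand, which was listed at 0 in every library.

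Sox4, on chromosome 13 at 28948919 to 28953713 (minus strand, a single exon), encodes an HMG box factor of progenitor cells in many tissues; its promoter, printed with that of Nr0b1, holds a single half-site. It was at 5.16, 7.30 and 5.56 RPKM in DKO_TG, 5.66, 3.26 and 3.75 in DKO, and 8.61, 7.69 and 8.74 in WT. The WT libraries were above all others, DKO replicate 2 was lowest, and DKO replicate 1 fell among the DKO_TG libraries. The log2 difference in DKO against WT was -0.93 ± 0.19 (SE, adjusted p = 0.00317 in limma), the largest of the 9 factors tested. It was called in all 9 fits that left out a library and under 4 of 5 other scalings; with the same sum of values it was -0.42 and not called (adjusted p = 0.155 in limma).

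Between DKO_TG and WT, Sox4 differed by -0.46 on the log2 scale (95% interval -0.88 to -0.03, adjusted p = 0.0709 in limma). That became 0.04 with the same sum of values, and it was called with TMM (-0.58, adjusted p = 0.0276 in limma), in a fit of the 6 libraries (adjusted p = 0.0233 in limma), without DKO replicate 1 (0.0202) and without DKO_TG replicate 2 (0.0415). Between DKO_TG and DKO it differed by 0.48 (0.05 to 0.91, adjusted p = 0.260 in limma). Of 6 endothelial markers, which mark another cell type with Sox factors, 5 were lower in DKO than in WT (25.9% of all genes) and 4 in DKO_TG than in WT (22.3%), with sums of 63.2 to 73.8 RPKM in DKO_TG, 49.5 to 75.3 in DKO and 88.8 to 96.4 in WT. Most of these calls rest on the scaling. In DKO against WT, Plvap was called under all 5 other scalings, Emcn under 4, Kdr under 2, and Pecam1 and Tek under 1; in DKO_TG against WT, Plvap was called under 4, Emcn under 2, and Pecam1 and Kdr under 1. The part of these cells in the level of Sox4 was not tested. Sox4 shares 2616 of its 4795 exon bases with Gm26735 on the opposite strand, listed at 0 in every library, and is uncertain to that extent.

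Sox9, on chromosome 11 at 112782224 to 112787760 (plus strand), directs Sertoli cell fate in the testis. It was at 0.223, 0.315 and 0.291 RPKM in DKO_TG, 0.232, 0.354 and 0.311 in DKO, and 0.269, 0.330 and 0.380 in WT, from 45 to 90 reads per library. The groups overlapped, and no group stood above WT. Without a filter, limma gave log2 differences of -0.05 in DKO against WT (95% interval -0.26 to 0.16) and -0.09 in DKO_TG against WT (-0.30 to 0.12), on a scale that compresses a gene below the pseudocount.

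**Figure D3:**
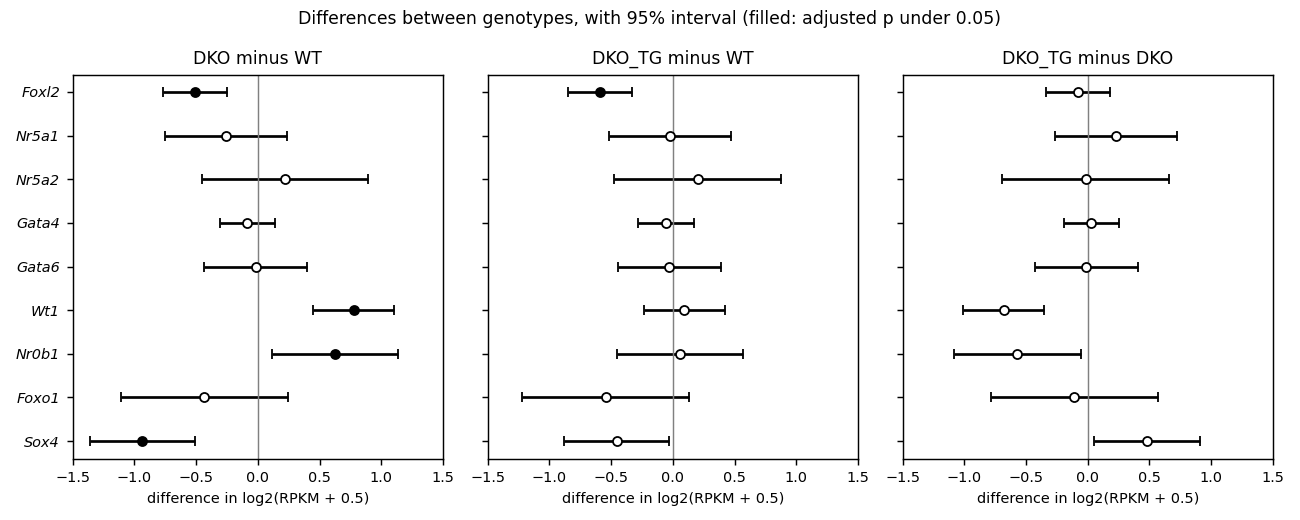
Difference in log2(RPKM + 0.5) with its 95% interval for the 9 factors tested, in DKO minus WT, DKO_TG minus WT and DKO_TG minus DKO; filled points have an adjusted p under 0.05 in limma. Sox4 and Foxl2 lie below 0 and Wt1 and Nr0b1 above 0 in DKO minus WT (-0.93, -0.51, 0.77 and 0.63), and only Foxl2 is filled in DKO_TG minus WT.

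Ratios of factors within a library are free of scaling between libraries, and 4 were compared over 3 pairs of genotypes. With 3 libraries against 3, the exact two-sided permutation test cannot go below p = 0.1. The ratio of Nr0b1 to Nr5a1, whose protein it represses, was 0.0152, 0.0204 and 0.0139 in DKO_TG, 0.0282, 0.0296 and 0.0375 in DKO, and 0.0164, 0.0141 and 0.0148 in WT. DKO libraries were above all others and the remaining groups overlapped. The log2 difference was 1.06 in DKO against WT and -0.96 in DKO_TG against DKO, each with the smallest exact p allowed (0.1, adjusted over 12 comparisons to 0.6). In DKO_TG against WT it was 0.11 (exact permutation p = 0.7).

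The other 3 ratios overlapped in each of their 9 comparisons. Sox9 was at 0.0113 ± 0.00157 times Foxl2 in DKO_TG, 0.0118 ± 0.00353 in DKO and 0.00889 ± 0.00209 in WT (SD, n = 3 each; lowest exact permutation p = 0.2). Gata6 was at 0.124 ± 0.0338 times Gata4 in DKO_TG, 0.124 ± 0.0104 in DKO and 0.121 ± 0.0299 in WT (SD, n = 3 each). Nr5a2 was at 0.547 ± 0.0294 times Nr5a1 in DKO_TG, 0.666 ± 0.170 in DKO and 0.522 ± 0.267 in WT (SD, n = 3 each); the WT libraries alone spanned 0.231 to 0.755.

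**Figure D4:**
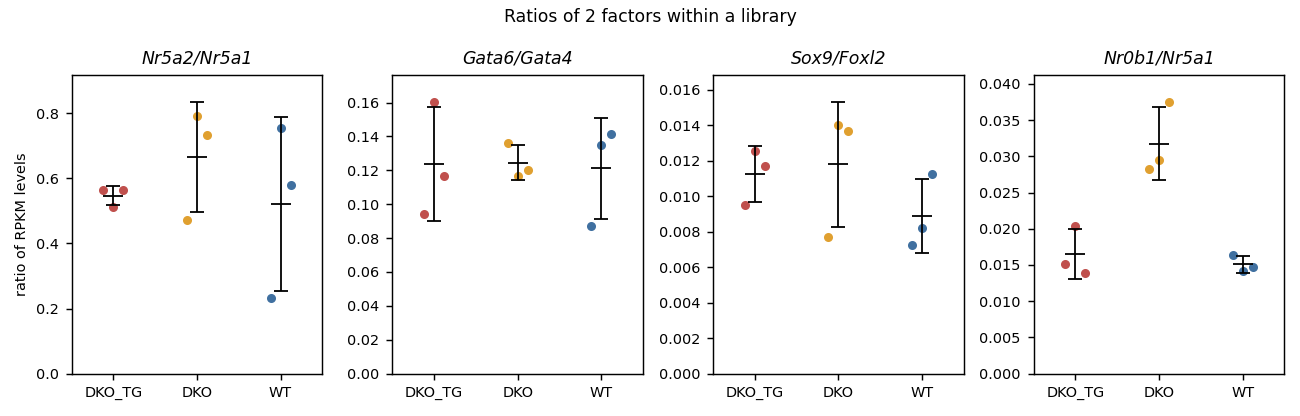
Ratio of RPKM levels of 2 factors within each library (vertical axes from 0) in DKO_TG, DKO and WT; points are libraries, with mean and SD (n = 3). Nr0b1 relative to Nr5a1 lies at 0.0282 to 0.0375 in DKO, above the libraries of both other groups, while the other ratios overlap.

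Levels relative to Gata4 in the same library were a view chosen after the values were seen. Gata4 varied least of the factors as deposited, by 1.22 times, so these levels stay close to the deposited ones and are no separate check on scaling. Gata4 itself moved with the scaling, from -0.21 to 0.46 in DKO against WT. Foxl2, Sox4 and Wt1 separated from WT in DKO on this measure too. Foxl2 was at 0.438, 0.527 and 0.487 times Gata4 in DKO_TG, 0.615, 0.556 and 0.413 in DKO, and 0.668, 0.783 and 0.664 in WT, so both groups stayed below WT. Wt1 was at 0.0893 to 0.129 times Gata4 in DKO_TG, 0.175 to 0.224 in DKO and 0.0888 to 0.115 in WT. Nr0b1 was at 0.0231 to 0.0325 in DKO_TG, 0.0327 to 0.0571 in DKO and 0.0207 to 0.0313 in WT, with DKO above both by a narrow margin. Sox4 was at 0.0965, 0.154 and 0.109 in DKO_TG, 0.116, 0.0718 and 0.0681 in DKO, and 0.155, 0.149 and 0.171 in WT, where DKO_TG replicate 2 overlapped WT. Over all tested genes, libraries did not overlap on this measure for 55% in DKO against WT, 62.6% in DKO_TG against WT and 16.9% in DKO_TG against DKO.

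**Figure D5:**
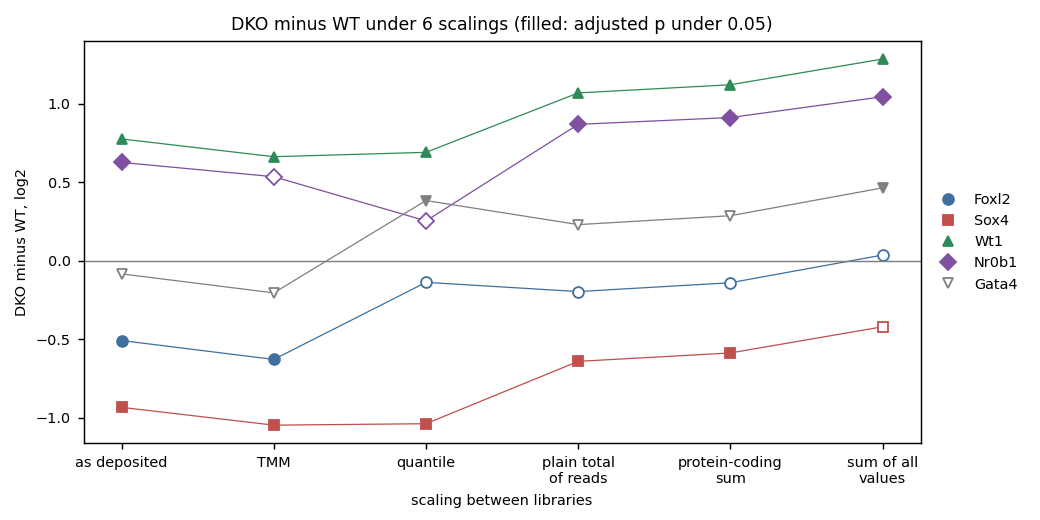
DKO minus WT on the log2 scale (vertical axis) for 5 factors under the deposited scaling and 5 others (horizontal axis); filled symbols have an adjusted p under 0.05 in limma. Wt1 stays between 0.66 and 1.28 and is called throughout, while Foxl2 runs from -0.63 to 0.04 and is called only as deposited and with TMM.

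Other regulators of the gonad were read from a list of 24 genes, of which 21 were tested. Of these, 6 rose and 2 fell in DKO against WT, beside 30.8% and 25.9% of all genes, so the share that rose is near the background. Their median log2 difference was 0.06, beside 0.02 over all genes. Zfpm1 (FOG1), a cofactor that binds GATA factors, was lower at 1.91 RPKM in DKO against 3.85 in WT (log2 difference -0.86, adjusted p = 0.000878 in limma), and Zfpm2 (FOG2) was higher at 1.83 against 1.27 (0.40, adjusted p = 0.0111 in limma). Nr2f2, a nuclear receptor of the ovarian interstitium, was higher at 13.3 RPKM in DKO against 7.95 in WT (0.70, adjusted p = 0.00154 in limma), and Foxo4, a forkhead relative of FOXO1, at 11.97 against 8.90 (0.41, adjusted p = 0.00470 in limma). Zfpm1 was not called with the same sum of values, at -0.39. The sign of Zfpm2 turned with quantile normalization, to -0.002, and Nr2f2 shares 643 exon bases with an opposite-strand gene and is uncertain.

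Of the same 21, 2 were higher and 4 lower in DKO_TG than in WT (29.1% and 22.3% of all genes), led by Zfpm1 at 1.82 RPKM in DKO_TG against 3.85 in WT and Nr2f2 at 12.2 against 7.95. Foxo3, another forkhead relative, was lower at 6.72 RPKM in DKO_TG against 8.92 in WT, and Bmp2, a growth factor of granulosa cells, at 2.54 against 3.43 (log2 differences -0.39 and -0.37, adjusted p = 0.0149 in limma for both). Neither was called under 3 of 5 other scalings, and both signs turned with the same sum of values (to 0.11 and 0.08). Between DKO_TG and DKO, limma called 0 of 21 (2.23% of all genes). An unadjusted p under 0.05 in limma was reached by 4, beside 2987 of all 18889 genes, and limma-voom called 0.

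Of 15 granulosa products known as targets of these factors, 0 rose and 3 fell in DKO against WT (30.8% and 25.9% of all genes): Scarb1, Cyp11a1 and Star, which bring in cholesterol and start steroid synthesis. Scarb1 averaged 142 RPKM in DKO against 405 in WT (log2 difference -1.63), Cyp11a1 1420 against 3071 (-1.13) and Star 194 against 542 (-1.52). All 3 lost their call with quantile normalization. Other steroid-making cells express these genes too. Of 8 theca and interstitial markers, 3 rose and 2 fell in DKO against WT (30.8% and 25.9% of all genes). Gli1 (4.05 RPKM in DKO against 0.787 in WT), Insl3 (0.853 against 0.0117) and Ptch1 (6.16 against 4.21) rose. Insl3 reached 0.5 RPKM in the DKO libraries only (0.515 to 1.13). It passed the filter through the group where it is high, which favoured its call. Hsd3b6 and Ephx2 fell (log2 differences -0.89 and -1.27). Gli1 and Insl3 were called under all 5 other scalings, Ptch1 and Hsd3b6 under 3 and Ephx2 under 1. Gli1 and Insl3 share exon bases with other genes and are uncertain. The 8 summed to 1809 to 2103 RPKM in DKO_TG, 971 to 1199 in DKO and 1456 to 2755 in WT. Of 6 luteal markers, 1 rose, Cdkn1b (41.9 RPKM in DKO against 17.7 in WT), and 1 fell, Prlr (log2 difference -0.97). Cdkn1b was called under all 5 other scalings and Prlr under 3. The median log2 difference of the 6 was -1.09. Ptgfr, Akr1c18 and Sfrp4 were called under 0 of 5 other scalings and varied widely within DKO (Ptgfr at 73.9, 11.5 and 0.582 RPKM). The luteal sums were 455 to 1324 RPKM in DKO_TG, 129 to 926 in DKO and 413 to 1462 in WT. Lhcgr stands in both marker lists and among the 15, and no marker of these lists was at 0 in all libraries. The part of these cells in the calls of Scarb1, Cyp11a1 and Star was not tested. For DKO_TG against WT, 0 of the 15 rose and 1 fell, beside 29.1% and 22.3% of all genes. The gene that fell was Amh, which encodes anti-Müllerian hormone, at 9.77 RPKM in DKO_TG against 16.9 in WT (log2 difference -0.73, adjusted p = 0.0464 in limma). Its call was lost under 4 of 5 other scalings and in 5 of 9 fits that left out a library. In DKO_TG against DKO limma called 0 of 15 (2.23% of all genes). An unadjusted p under 0.05 in limma was reached by 2, beside 2987 of all 18889 genes, and limma-voom called 0. The 15 genes summed to 5017 to 5343 RPKM in DKO_TG, 3232 to 4012 in DKO and 5994 to 7118 in WT. Cyp11a1 and Inha carry most of these sums, at 3071 and 1765 RPKM on average in WT. The median log2 difference of the 15 from WT was -0.13 in DKO and -0.005 in DKO_TG, beside 0.02 and 0.03 over all tested genes.

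Of 10 testis-side genes, 5 passed the filter. In DKO against WT 1 of them rose and 1 fell, beside 30.8% and 25.9% of all genes. Sry was listed at 0 in every library, and Dmrt1, Sox8, Sox10 and Fgf9 stayed below the filter. Ptgds, a prostaglandin D synthase that acts upstream of SOX9 protein in the fetal testis, was lower at 1.16 RPKM in DKO against 5.69 in WT (log2 difference -1.95, adjusted p = 0.00234 in limma). Cyp26b1, which breaks down retinoic acid, was higher at 2.25 against 1.27 (0.67, adjusted p = 0.0453 in limma), a call lost with TMM, with quantile normalization and in 6 of 9 fits that left out a library. In DKO_TG limma called 0 of 5 against WT or DKO (51.4% and 2.23% of all genes). Each comparison had 1 at an unadjusted p under 0.05 in limma (10896 and 2987 of all 18889 genes) and 0 by limma-voom.

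Of 11 relatives in the GATA, FOX and SOX families, 6 were tested. In DKO against WT 2 of them rose and 0 fell, beside 30.8% and 25.9% of all genes. Sox17, an endothelial factor, was higher at 2.89 RPKM in DKO against 1.19 in WT, and Gata1, a factor of blood lineages, at 1.60 against 0.669 (log2 differences 0.95 and 0.78, adjusted p = 0.0135 and 0.0343 in limma). Limma-voom called 1 of the 6, and neither call held with quantile normalization. Sox17 shares exon bases with an opposite-strand gene and is uncertain, and Gata1 lost its call in 5 of 9 fits that left out a library. In DKO_TG limma called 0 of 6 against WT (51.4% of all genes) and 0 of 6 against DKO (2.23%). An unadjusted p under 0.05 in limma was reached by 2 against WT and 0 against DKO. Over all 18889 genes, 10896 and 2987 reached it. Limma-voom called 0 in both comparisons.

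Genes with the most similar pattern over the 9 libraries were sought for 3 factors by the root mean square difference of centred log2 values among 13210 tested protein-coding genes (13211 for Sox9). Nearest to Foxl2 were Gaa, Slc38a10 and Ppp1r9b, at 0.0775, 0.0775 and 0.0782. Gaa was at 27.2, 29.1 and 28.7 RPKM in DKO_TG, 34.4, 27.6 and 24.2 in DKO, and 36.6, 45.8 and 39.9 in WT. Nearest to Nr5a1 were Ppp1r3b, Amhr2 and Top3a, at 0.125, 0.126 and 0.127; Amhr2, which encodes the receptor for anti-Müllerian hormone, was at 38.4, 37.8 and 36.8 RPKM in DKO_TG, 36.3, 26.7 and 37.8 in DKO, and 41.0, 34.3 and 34.4 in WT. Nearest to Sox9 were Ube2z, B630019K06Rik and Mcmbp, at 0.0534 to 0.0619, which are near-flat patterns like that of Sox9 itself (SD 0.0957 on this scale).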

How the data were processed

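The authors deposited a single table of RPKM values, with 1 column for each of 9 libraries. The submitters' processing notes name cutadapt, HISAT2 2.1.0, HTSeq 0.5.4p5, DESeq2 1.2.8 and mm10. How the RPKM were made, with which annotation and strand setting, is not given in the sources used here. Columns of the transgenic group, whose spelling departs from the titles, were assigned by genotype and replicate number.

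Exon lengths, coordinates and overlaps came from GENCODE M21 (mm10). RPKM times exon length gave whole reads for 97.6% to 97.9% of values above 0 in each library (within 0.01 read or 1e-06 of the value), and in all libraries for 53992 genes. The factors and gene lists were chosen with earlier results of these data known. Factors are all named. Of each list other than the cell type markers, at most the 4 genes with the smallest adjusted p are named. Overlapping transcripts were added after values were seen.

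Differences were tested with limma 3.58.1 in R 4.3.3 (lmFit, eBayes with trend, a single fit) on log2(RPKM + 0.5), which understates the change of low genes. The fit was checked on simulated reads with known changes. Ratios used exact permutation tests (SciPy 1.17.1). Alternatives were pseudocounts of 0.1 and 1, no filter or a filter at 1 RPKM, 5 scalings, limma-voom on recovered reads, a replicate block, fits of 6 libraries, and omission of each library.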

Additional observations from a re-analysis of the deposited data

How the results depend on the processing

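In DKO against WT, Wt1 was called under all 21 alternatives and Sox4 under 20; the Foxl2 calls against WT were lost under 4 of 5 other scalings in each comparison. The causes of the changes below were not tested. "TPM" is the same sum of values, and "coding TPM" that sum over protein-coding genes.

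With TPM, log2 differences in DKO against WT turned to 0.0353 for Foxl2, 0.294 for Nr5a1, 0.463 for Gata4, 0.490 for Gata6 and 0.107 for Foxo1. Quantile normalization turned Nr5a1 to 0.322 and Gata4 to 0.383. The plain total turned Nr5a1 to 0.0592, Gata4 to 0.229 and Gata6 to 0.274, and coding TPM turned them to 0.116, 0.286 and 0.327. In DKO_TG against WT, TMM turned Wt1 to -0.0284 and Nr0b1 to -0.0395. TPM turned Nr5a1 to 0.502, Gata4 to 0.469 (called), Gata6 to 0.456 and Sox4 to 0.0387. Quantile normalization turned Nr5a1 to 0.480, Gata4 to 0.342, Wt1 to -0.0611 and Nr0b1 to -0.324. The plain total turned Nr5a1 to 0.240, Gata4 to 0.208 and Gata6 to 0.216, and coding TPM to 0.314, 0.282 and 0.284. In DKO_TG against DKO, Gata4 turned to -0.0409 with quantile normalization, -0.0210 with the plain total and -0.00415 with coding TPM. The ratio of Sox9 to Foxl2 turned to 0.0389 in DKO_TG against DKO with a pseudocount of 0.5.

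Genes called higher in DKO than in WT numbered 5821 as reported and 10027 with TPM; those lower numbered 4889, against 1065 with TPM, 2314 with the plain total and 2018 with coding TPM. For DKO_TG against WT, 5491 higher became 9739 with TPM, and 4214 lower became 994, 2238 and 1813 under those 3 scalings. Between DKO_TG and DKO, 94 higher became 21 with the replicate block and 24 in a fit of 6 libraries. The 327 lower became 162 with no filter, 78 with the block and 44 in 6 libraries. In DKO_TG against WT, where 1 factor was called, 2 were called with TMM, TPM and 6 libraries, and 0 with quantile normalization and the plain total. Of the factors in DKO_TG against DKO, where 0 were called, 1 (Wt1) was called with a pseudocount of 1, TPM, quantile normalization, the plain total and coding TPM.

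Leaving out each library gave 5235 to 5988 genes higher and 3924 to 5216 lower in DKO against WT, 4586 to 5741 and 3044 to 4569 in DKO_TG against WT, and 10 to 111 and 23 to 391 in DKO_TG against DKO. Factors called numbered 3 to 4, 1 to 2 and 0. Signs turned within these ranges of log2 difference. In DKO against WT they were -0.187 to 0.0816 for Gata6 and -0.125 to 0.477 for Nr5a2. In DKO_TG against WT they were -0.110 to 0.133 for Nr5a1, -0.142 to 0.459 for Nr5a2, -0.198 to 0.101 for Gata6, -0.00465 to 0.240 for Wt1 and -0.0408 to 0.218 for Nr0b1. In DKO_TG against DKO they were -0.169 to 0.0262 for Foxl2, -0.0164 to 0.360 for Nr5a1, -0.123 to 0.187 for Nr5a2, -0.0337 to 0.103 for Gata4, -0.159 to 0.118 for Gata6 and -0.396 to 0.148 for Foxo1. Ratios are given for DKO against WT, DKO_TG against WT and DKO_TG against DKO in turn: Gata6 to Gata4 ran from -0.155 to 0.197, -0.197 to 0.206 and -0.247 to 0.138; Nr5a2 to Nr5a1 from -0.0270 to 0.827, -0.277 to 0.577 and -0.480 to -0.108; Nr0b1 to Nr5a1 from 0.938 to 1.14, -0.0549 to 0.224 and -1.12 to -0.829; Sox9 to Foxl2 from 0.233 to 0.662, 0.222 to 0.538 and -0.305 to 0.124.

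Replicate numbers were not a pairing: same-numbered libraries deviated with correlations of -0.309 to 0.142, 2 of 9 pairs exceeded 0.1, and 1 of 9 libraries correlated best with its own number. With the replicate block, 26 of 27 differences of factors kept direction and side of the threshold, and Nr0b1 in DKO against WT lost its call (adjusted p = 0.0530 in limma).

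Depth limits Sox9 and Nr0b1 most, with 45 to 90 and 86 to 372 reads per library. With 3 libraries in a group, 95% intervals of Nr5a2 and Foxo1 against WT span 0.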
